A study of Homo sapiens with 4 samples.

Results

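The genes described here are 49 genes of the mitotic spindle and of the checkpoint that watches over it, taken by symbol from the 20348 genes of the deposited count table. All 49 were found by symbol. They are listed for the known roles of their products and were chosen with earlier results of these data known. K562 is an established erythroleukemic line (from chronic myeloid leukemia), and the monocytic line THP-1 came from an acute leukemia. Both were treated with DMSO or with 100 nM Periplocin, a cardiac glycoside from Cortex periplocae, for 72 h before RNA was taken. Poly-A RNA was sequenced with 1 library per condition, so there were 4 libraries, a DMSO and a Periplocin library of each line. In the labels the sample titles give the control as blank, but the library names, like the methods, give it as DMSO. No genetic change was made in any group, and each line was used as a bulk culture. The study states a single biological replicate, so no spread between replicates exists and no difference between libraries has a replicate check. Intervals below are 95% exact counting intervals, which cover counting error only.

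Mitosis divides the duplicated chromosomes between daughter cells. Microtubules of the spindle attach to each chromosome at its kinetochore, which is built on centromeric chromatin, and kinesin motors and crosslinking proteins shape the spindle. Kinetochores that are not yet attached hold the spindle checkpoint active, and this keeps CDC20 from switching on the anaphase-promoting complex (APC/C), the ubiquitin ligase whose substrates securin and cyclin B must be destroyed before sister chromatids part. Most of these genes are transcribed late in the cell cycle, and their promoters are known for the cell cycle genes homology region (CHR), an element bound by the MuvB complexes, and for CCAAT boxes, bound by NF-Y.

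Total counts were between 16381172 and 20622719 per library. Mitochondrially encoded genes took 5.62% of the counts with DMSO and 2.07% with Periplocin in K562, and 5.24% and 3.93% in THP-1. The labelled lines were checked against marker genes. All 10 erythroleukemic markers of K562 were at 1 CPM or more in both K562 libraries, with a summed level of 2770 CPM in DMSO and 10900 CPM in Periplocin, against 261 and 254 CPM in THP-1, where nearly all of the sum was TFRC. Of 11 monocytic markers, 10 were at 1 CPM or more in THP-1 DMSO and 9 after Periplocin, with MEIS1 near 0 in both (0.304 and 0.177 CPM) and MPO at 2.18 and 0.827 CPM. In K562, 7 and 6 of these 11 were at 1 CPM or more, and CEBPB (83.7 against 26.8 CPM) and MEIS1 (6.80 against 0.304 CPM) were higher in K562 DMSO than in THP-1 DMSO. Lymphoid markers were under 1 CPM in all 4 libraries. KRT18 and EPCAM, which are epithelial genes, were at 379 and 43.5 CPM in K562 DMSO and under 1 CPM in THP-1.

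Promoter sequences are shown for 7 members: KIF20A, PLK1, BUB1 and CDC20, which had the largest increases in K562 among members with a promoter window, CCNB2, which went opposite ways in the 2 lines, and CDC25C and SPC24, the members with the lowest change in each line. Each window is the RefSeq sequence on GRCh38.p14 from 250 bases before to 50 bases after the start site, written 5′ to 3′ on the strand of the gene. Capitals mark the letters searched, on both strands: TTTGAA or TTCGAA for the CHR (TTCAAA where TTTGAA is on the opposite strand) and CCAAT for the NF-Y box (ATTGG on the opposite strand). The windows are chr5:138178862-138179161, plus strand, for KIF20A, chr16:23678639-23678938, plus strand, for PLK1, chr2:110678014-110678313, minus strand, for BUB1 and chr1:43358731-43359030, plus strand, for CDC20. Those of CCNB2, CDC25C and SPC24 are chr15:59104896-59105195 on the plus strand, chr5:138338306-138338605 on the minus strand and chr19:11155733-11156032 on the minus strand.
KIF20A: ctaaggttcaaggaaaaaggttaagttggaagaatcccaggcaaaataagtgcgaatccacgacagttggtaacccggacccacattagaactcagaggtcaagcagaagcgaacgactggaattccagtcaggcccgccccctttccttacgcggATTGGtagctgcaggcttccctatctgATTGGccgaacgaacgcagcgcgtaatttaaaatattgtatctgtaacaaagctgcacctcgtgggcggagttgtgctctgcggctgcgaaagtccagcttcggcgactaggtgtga
PLK1: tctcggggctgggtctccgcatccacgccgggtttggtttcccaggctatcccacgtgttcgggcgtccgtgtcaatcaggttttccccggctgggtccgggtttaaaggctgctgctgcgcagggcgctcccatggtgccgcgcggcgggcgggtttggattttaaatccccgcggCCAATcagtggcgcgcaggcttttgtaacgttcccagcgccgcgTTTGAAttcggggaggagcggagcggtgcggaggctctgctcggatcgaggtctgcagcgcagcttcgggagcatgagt
BUB1: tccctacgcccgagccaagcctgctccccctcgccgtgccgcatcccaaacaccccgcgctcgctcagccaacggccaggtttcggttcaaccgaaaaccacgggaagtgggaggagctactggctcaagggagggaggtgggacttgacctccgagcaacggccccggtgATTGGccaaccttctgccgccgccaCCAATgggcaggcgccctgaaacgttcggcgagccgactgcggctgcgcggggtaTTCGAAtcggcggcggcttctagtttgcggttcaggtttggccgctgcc
CDC20: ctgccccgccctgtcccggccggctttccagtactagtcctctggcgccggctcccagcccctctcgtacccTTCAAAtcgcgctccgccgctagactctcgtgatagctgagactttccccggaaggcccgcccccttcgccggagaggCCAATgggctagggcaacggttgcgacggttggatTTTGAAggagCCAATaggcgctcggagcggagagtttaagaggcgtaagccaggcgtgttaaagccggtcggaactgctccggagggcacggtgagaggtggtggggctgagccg
CCNB2: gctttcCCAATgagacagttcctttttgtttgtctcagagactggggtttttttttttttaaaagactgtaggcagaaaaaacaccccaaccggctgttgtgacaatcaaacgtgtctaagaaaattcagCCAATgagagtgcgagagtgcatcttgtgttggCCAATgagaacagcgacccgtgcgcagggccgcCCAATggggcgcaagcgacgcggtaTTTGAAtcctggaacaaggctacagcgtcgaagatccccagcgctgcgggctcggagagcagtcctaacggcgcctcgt
CDC25C: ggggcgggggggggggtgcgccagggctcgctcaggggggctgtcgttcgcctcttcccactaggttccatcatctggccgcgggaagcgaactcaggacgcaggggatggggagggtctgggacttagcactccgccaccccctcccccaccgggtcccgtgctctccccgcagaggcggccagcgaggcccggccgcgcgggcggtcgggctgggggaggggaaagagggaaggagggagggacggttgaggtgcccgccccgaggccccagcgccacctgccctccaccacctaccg
SPC24: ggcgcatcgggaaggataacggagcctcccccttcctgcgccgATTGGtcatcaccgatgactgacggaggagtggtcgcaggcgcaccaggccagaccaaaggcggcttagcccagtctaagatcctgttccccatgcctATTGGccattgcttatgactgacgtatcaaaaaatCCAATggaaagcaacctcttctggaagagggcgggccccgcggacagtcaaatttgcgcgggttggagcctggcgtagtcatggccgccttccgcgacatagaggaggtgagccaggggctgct

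The windows of PLK1 and CCNB2 carry TTTGAA with its first base 29 bases before the start site and CCAAT boxes upstream of it. PLK1 has 1 such box, whose first base is at position -73. CCNB2 has 4, and the nearest has its first base at position -54. In BUB1 the CHR letters are TTCGAA, which reads the same on both strands, just after the start, and 2 CCAAT boxes lie upstream. The window of CDC20 has CHR letters in both directions and 2 CCAAT boxes, that of KIF20A has 2 CCAAT boxes and no CHR letters, that of SPC24 has 3 CCAAT boxes and no CHR letters, and that of CDC25C has neither. A match is a description of the letters and not a bound site, and the absence of a match says only that these letters are not in this window.

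In K562 these genes were mostly higher with Periplocin. Their summed level was 4590 CPM in DMSO and 8570 CPM in Periplocin, and the median member went from 66.7 to 132 CPM. CPM is the count scaled to a common library total after TMM, an adjustment of library sizes that aligns the bulk of all genes. A gene was read as measured in a comparison when its mean level in the pair of libraries was at least 1 CPM, which 48 of the 49 members passed in K562, all but UBE2C. Of these, 22 were at least 2-fold higher and 0 were at least 2-fold lower, where 8.85% of all 11814 measured genes were at least 2-fold higher and 11.4% at least 2-fold lower. The median log2 fold change was 0.84 over the members and -0.01 over all measured genes, and the quartiles of the members were 0.54 and 1.22.

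In THP-1 the same genes stayed near their DMSO level. Their summed level was 5720 CPM in DMSO and 5980 CPM in Periplocin, and the median member was at 81.6 and 85.1 CPM. All 49 were measured, and 0 were at least 2-fold higher or lower, where 8.02% of all 12391 measured genes were at least 2-fold higher and 10.6% at least 2-fold lower. The median log2 fold change was 0.03 over the members and -0.03 over all measured genes, and single members ran from -0.87 to 0.85. RNA from the whole culture was measured. These libraries therefore cannot tell a larger share of cells late in the cell cycle from more of these transcripts per cell.

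**Figure D1:**
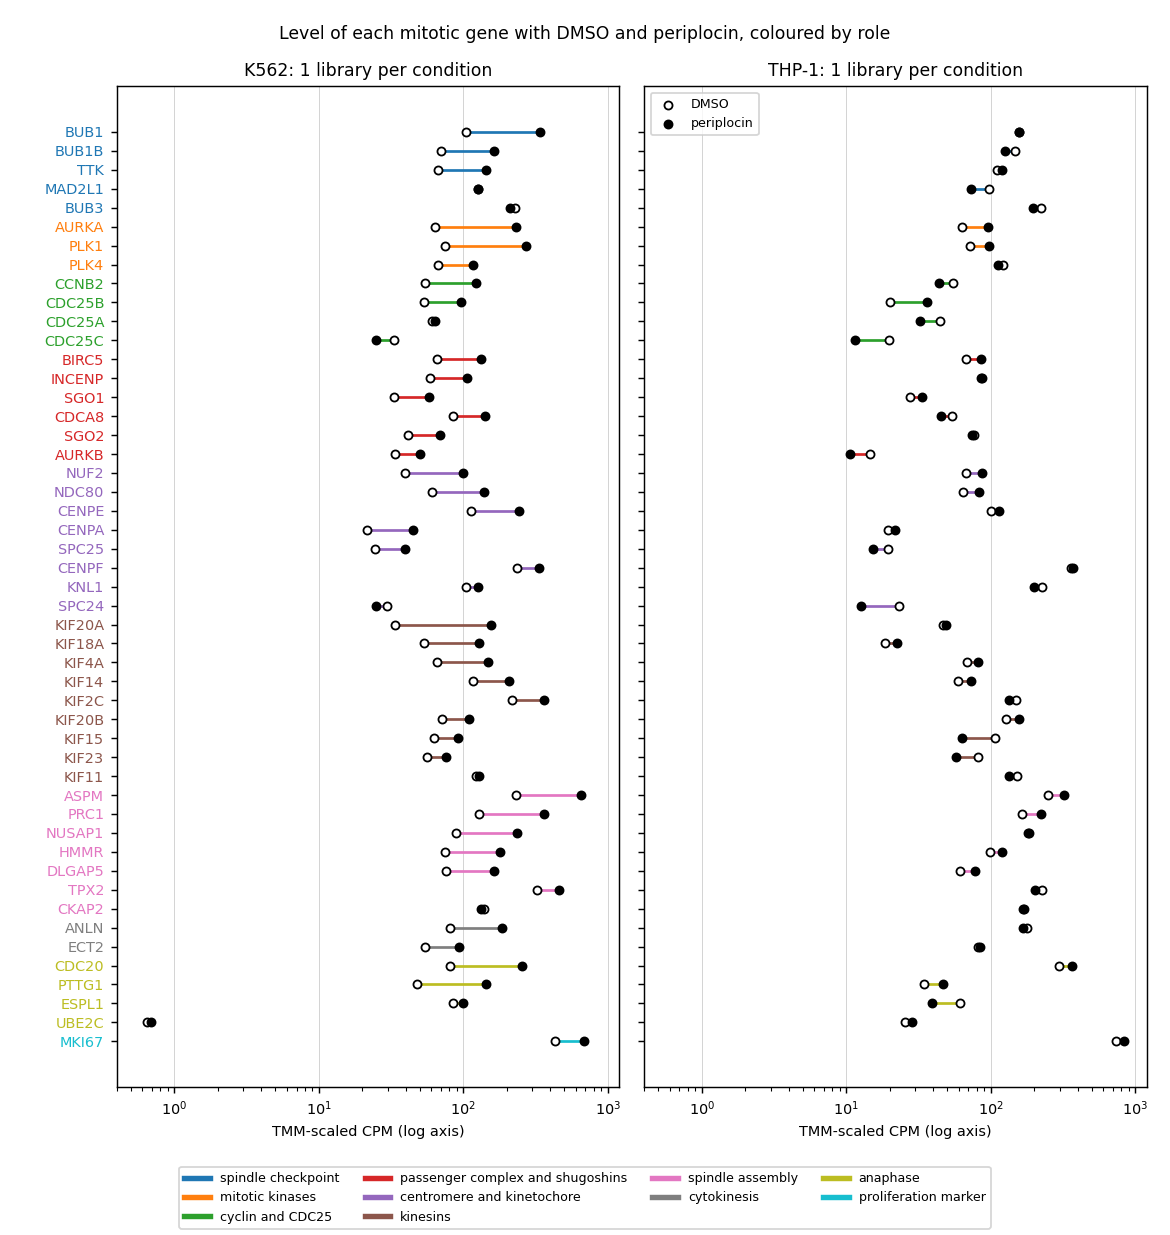
Level of each of the 49 genes in TMM-scaled CPM on a log axis, K562 on the left and THP-1 on the right, with open circles for the DMSO library, filled circles for the Periplocin library and lines coloured by role. Filled circles lie to the right of the open ones for 43 of the 48 members measured in K562, whereas in THP-1 28 lie to the right and 21 to the left. Among all measured genes, 49.3% were higher with Periplocin in K562 and 48.1% in THP-1.

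Among the checkpoint genes, 3 of 5 were at least 2-fold higher in K562. BUB1, a kinase that recruits the checkpoint to the kinetochore, was at 104 CPM in K562 DMSO and 341 CPM in K562 Periplocin, a log2 fold change of 1.71 with an interval of 1.63 to 1.79. In THP-1 it was at 158 CPM in DMSO and 156 CPM in Periplocin. BUB1B encodes BubR1, a part of the complex that inhibits the APC/C, and went from 70.3 to 162 CPM in K562 and from 148 to 126 CPM in THP-1. TTK, the kinase at the head of the checkpoint, went from 66.7 to 143 CPM in K562 and from 111 to 120 CPM in THP-1. The other two are MAD2L1, whose product binds CDC20, and BUB3, the partner of BUB1 and BubR1. MAD2L1 was at 127 and 126 CPM in K562 and at 97.5 and 73.2 CPM in THP-1, and BUB3 was at 228 and 211 CPM in K562 and at 223 and 196 CPM in THP-1. Within the checkpoint, log2 fold changes in K562 thus ran from 1.11 for TTK to 1.71 for BUB1 among 3 genes and were -0.12 for BUB3 and -0.02 for MAD2L1.

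The mitotic kinases had the highest median of any role in K562, at a log2 fold change of 1.87 over 3 genes. AURKA, the Aurora kinase of the centrosome and spindle poles, was at 63.5 CPM with DMSO and 233 with Periplocin in K562 and at 62.9 and 96.3 CPM in THP-1, and its log2 fold change was 1.88 in K562 and 0.62 in THP-1 (interval 0.51 to 0.72). PLK1, the Polo-like kinase that acts from mitotic entry to cytokinesis, was at 74.8, 273, 71.5 and 96.8 CPM in the same order, with log2 fold changes of 1.87 and 0.44. These kinases started from nearly the same level in the DMSO libraries of both lines, and both were higher with Periplocin in both lines beyond counting error. Of all genes measured in both lines, 20.1% were higher in both beyond counting error. PLK4, which starts centriole duplication, was at 66.6 and 117 CPM in K562 and at 122 and 113 CPM in THP-1.

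The cyclin and the CDC25 phosphatases, which turn on the mitotic kinase CDK1, did not move together. CCNB2, a B-type cyclin, was at 53.9 CPM in K562 DMSO and 122 CPM in K562 Periplocin (log2 fold change 1.18, interval 1.07 to 1.295), and at 55.2 and 44.0 CPM in THP-1 (-0.33, interval -0.46 to -0.19). CDC25B went from 53.0 to 97.0 CPM in K562 and from 20.2 to 36.4 CPM in THP-1, with log2 fold changes of 0.87 and 0.85, the highest of any member in THP-1. CDC25C went the other way in both lines, from 33.3 to 24.7 CPM in K562 and from 19.9 to 11.5 CPM in THP-1. Its log2 fold change of -0.43 (interval -0.62 to -0.25) was the lowest in K562, and that in THP-1 was -0.79 (interval -1.05 to -0.54). CDC25A, which also acts at the start of S phase, was at 60.9 and 63.6 CPM in K562 and at 44.7 and 32.2 CPM in THP-1.

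All 6 genes of the chromosomal passenger complex and of the shugoshins were higher in K562 Periplocin than in K562 DMSO beyond counting error, by log2 fold changes of 0.56 to 1.01. Of all genes measured in K562, 38.3% were higher beyond counting error. The complex corrects wrong attachments, and shugoshins protect cohesion at the centromere. BIRC5, which encodes survivin, went from 65.7 to 132 CPM in K562 and from 67.6 to 85.1 CPM in THP-1. It was the member just inside 2-fold in K562, at a log2 fold change of 1.01, and CDC25B was the member just outside, at 0.87. AURKB, the kinase of the complex, went from 33.8 to 49.8 CPM in K562 and from 14.6 to 10.6 CPM in THP-1. CDCA8, which encodes borealin, went from 84.9 to 142 CPM in K562 and from 53.9 to 45.2 CPM in THP-1. The scaffold gene INCENP and the shugoshin genes SGO1 and SGO2 changed less in THP-1, by 0.02, 0.27 and -0.05 on the log2 scale, than in K562, by 0.84, 0.82 and 0.73.

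Of the 8 centromere and kinetochore genes, 4 were at least 2-fold higher in K562. NUF2 and NDC80, the subunits of the NDC80 complex that hold the microtubule, went from 39.3 to 98.9 CPM and from 61.0 to 140 CPM in K562. In THP-1 they went from 67.6 to 87.7 CPM and from 63.8 to 83.4 CPM. SPC24 and SPC25, which anchor that complex to the kinetochore, did not change in step. SPC25 was at 24.3 and 39.5 CPM in K562 and at 19.6 and 15.3 CPM in THP-1. SPC24 was at 29.8 and 24.9 CPM in K562 and at 23.1 and 12.6 CPM in THP-1, where its log2 fold change of -0.87 (interval -1.11 to -0.63) was the lowest of the 49. After subtraction of the median of genes of like GC content and length, it was -0.758 in THP-1. CDC25C was then at -0.773 and ESPL1 at -0.759 there, so this order depends on the processing. CENPE, a kinetochore motor, went from 113 to 244 CPM in K562 and from 100 to 114 CPM in THP-1, and CENPA, the histone variant that marks centromeres, went from 21.5 to 44.5 CPM and from 19.6 to 21.6 CPM. KNL1, the platform on which BUB1 and BubR1 gather, was at 104 and 126 CPM in K562 and at 227 and 199 CPM in THP-1. CENPF had log2 fold changes of 0.50 in K562 and 0.03 in THP-1. Within the 4-subunit NDC80 complex, log2 fold changes in K562 thus ran from -0.26 for SPC24 to 1.33 for NUF2.

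The kinesins held the largest increase of all. KIF20A, the motor that carries the passenger complex to the central spindle, was at 33.4 CPM in K562 DMSO and 155 CPM in K562 Periplocin, a log2 fold change of 2.21 (interval 2.08 to 2.35), and at 46.6 and 49.1 CPM in THP-1, where the interval of -0.06 to 0.21 included 0. After subtraction of the median of genes of like GC content and length, its change in THP-1 was 0.23 (interval 0.09 to 0.37). KIF18A, which dampens chromosome movements, went from 53.3 to 128 CPM in K562 and from 18.4 to 22.6 CPM in THP-1, and KIF4A, a chromosome-bound motor, went from 65.6 to 149 CPM and from 68.9 to 82.2 CPM. KIF11, the motor that pushes the spindle poles apart, had the lowest log2 fold change of a kinesin in K562, with 122 and 129 CPM (interval -0.00 to 0.17), and was at 153 and 134 CPM in THP-1. KIF15, a motor that can share this work with KIF11, was at 62.2 and 92.0 CPM in K562 and at 107 and 63.2 CPM in THP-1, the lowest log2 fold change of a kinesin there (-0.76). KIF23, which bundles microtubules at the midzone, was at 56.1 and 76.1 CPM in K562 and at 82.2 and 57.5 CPM in THP-1. KIF2C, which takes microtubules apart at the centromere, was at 216 and 363 CPM in K562 and at 149 and 134 CPM in THP-1. KIF20B had the highest log2 fold change of a kinesin in THP-1 (0.31), with 127 and 158 CPM there and at 70.8 and 110 CPM in K562. After the subtraction for GC content and length its change in THP-1 was 0.119, below KIF18A (0.325) and KIF4A (0.321). All 9 kinesins had a positive log2 fold change in K562, and 5 did in THP-1, where 49.3% and 48.1% of all measured genes did.

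Of the 7 genes for spindle assembly, 5 were at least 2-fold higher in K562. ASPM, which works at the spindle poles, went from 233 to 653 CPM in K562 and from 250 to 324 CPM in THP-1. PRC1, which crosslinks antiparallel microtubules, went from 129 to 359 CPM in K562 and from 164 to 222 CPM in THP-1. In GENCODE release 29, 57.6% of the PRC1 exon bases are shared with AC068831.7, a gene that had 1024 and 2121 counts in the K562 libraries and 1051 and 1077 in those of THP-1, so reads of these genes may have been split between them. NUSAP1, which binds spindle microtubules near chromatin, went from 88.9 to 235 CPM in K562 and was at 181 and 184 CPM in THP-1. HMMR went from 74.2 to 179 CPM in K562 and from 99.6 to 119 CPM in THP-1, and DLGAP5, which stabilises kinetochore fibres, went from 76.4 to 164 CPM and from 61.0 to 78.1 CPM. TPX2, the activator of AURKA, was at 325 and 459 CPM in K562 and at 227 and 203 CPM in THP-1 (log2 fold change -0.16 in THP-1, or -0.01 after subtraction of the median of genes of like GC content and length). CKAP2 was nearly flat, at 140 and 132 CPM in K562 and at 168 and 170 CPM in THP-1.

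ANLN and ECT2 act in cytokinesis, ANLN as a scaffold of the contractile ring and ECT2 as the activator of RhoA at the cell equator. ANLN went from 80.2 to 184 CPM in K562 and was at 177 and 168 CPM in THP-1 (log2 fold change -0.08, interval -0.15 to -0.01, or -0.11 to 0.03 with DESeq2 size factors). ECT2 was at 54.6 and 93.9 CPM in K562 and at 81.6 and 83.7 CPM in THP-1. Of the genes for anaphase, CDC20, the activator of the APC/C, went from 80.6 to 253 CPM in K562 and from 295 to 366 CPM in THP-1. PTTG1, which encodes securin, the inhibitor of separase, went from 47.5 to 143 CPM in K562 and from 34.5 to 46.8 CPM in THP-1. ESPL1, which encodes separase itself, was at 85.3 and 98.9 CPM in K562 and at 61.3 and 39.4 CPM in THP-1. On the log2 scale the inhibitor changed by 1.59 and the protease it holds by 0.21 in K562, and in THP-1 the changes were 0.44 and -0.64. UBE2C, the ubiquitin-conjugating enzyme of the APC/C, had 11 and 12 counts in K562 and 508 and 482 counts in THP-1, so no change in K562 could be read from these counts (interval of the log2 fold change -1.21 to 1.42). GENCODE release 29 lists 4 processed pseudogenes of UBE2C, which are not among the genes of the count table. Their part in the low K562 value was not tested. MKI67, which encodes the proliferation marker Ki-67, was at 432 and 684 CPM in K562 and at 737 and 832 CPM in THP-1 (log2 fold changes 0.66 and 0.17). After the same subtraction for GC content and length its change in THP-1 was 0.03, with an interval of -0.01 to 0.06 that included 0.

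Counting error was small beside most of these changes, with a median interval of 0.10 to either side of a log2 fold change in K562 and 0.11 in THP-1. At 1.5-fold, 34 members were higher and 0 lower in K562, where 19.0% and 21.9% of all genes were. In K562, the interval lay above 0 for 41 members and below 0 for 4, CDC25C, SPC24, BUB3 and CKAP2, while 38.3% of all measured genes lay above 0 and 39.3% below. For the other 3, MAD2L1, CDC25A and KIF11, it included 0. After subtraction of the median of genes of like GC content and length, 1 member, CDC25C, remained below 0 in K562. In THP-1, the interval lay above 0 for 20 members and below 0 for 19, where 37.1% of all measured genes lay above and 39.7% below. In THP-1, 2 members passed 1.5-fold upward, CDC25B and AURKA, and 4 downward, SPC24, CDC25C, KIF15 and ESPL1, against 17.1% and 21.4% of all genes. The erythroid markers of K562 were higher beside these genes. All 10 were higher in K562 Periplocin than in K562 DMSO, among them KLF1 at 83.7 and 281 CPM and HBZ at 124 and 1150 CPM, and the share of mitochondrial counts was lower, as given above. Their part in the result was not tested.

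The changes in the lines were then set beside each other, gene by gene, in the 10780 genes measured in both. The K562 change was larger than the THP-1 change for 47 of the 48 members, all but CKAP2, and for 52.7% of all genes. The difference, as the K562 log2 fold change minus that of THP-1, had a median of 0.91 over the members and 0.05 over all genes. It was at least 1 for 17 members, where 9.78% of all genes were, and at most -1 for 0, where 11.0% were. It was largest for KIF20A (2.14), BUB1 (1.73) and CCNB2 (1.51). With 1 library per condition, the difference between the lines has no replicate error and was not tested.

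For 13 members the K562 interval lay above 0 and the THP-1 interval below 0, where 10.1% of all genes did so. They were BUB1B, PLK4, CCNB2, AURKB, CDCA8, SPC25, KNL1, KIF15, KIF23, KIF2C, TPX2, ANLN and ESPL1, and 0 members had the reverse pattern, which 10.1% of all genes had. ANLN lost this call with TMM over the pair of libraries and, with PLK4, with DESeq2 size factors, and CDCA8, PLK4, SPC25 and TPX2 lost it after the subtraction for GC content and length, where 9 of the 13 remained. KIF11 gained it with total counts, and CENPF after that subtraction. A further 20 members were above 0 beyond counting error in both lines, where 20.1% of all genes were, among them AURKA, PLK1, CDC20, PTTG1, ASPM, PRC1, NUF2 and NDC80. After that subtraction 17 of the 20 remained, CENPE, KIF14 and MKI67 no longer being above 0 in THP-1. CENPA, KIF20A and NUSAP1 joined them, so that 20 members were again above 0 in both lines. With DESeq2 size factors CENPF joined the 20. Although THP-1 changed little, the order of the members was partly shared. Across the 48 members, Pearson's r between the log2 fold changes of the lines was 0.67 and Spearman's rho 0.69, beside 0.28 and 0.31 across all 10780 genes. These are correlations across genes, which share the 4 libraries and are not independent replicates.

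**Figure D2:**
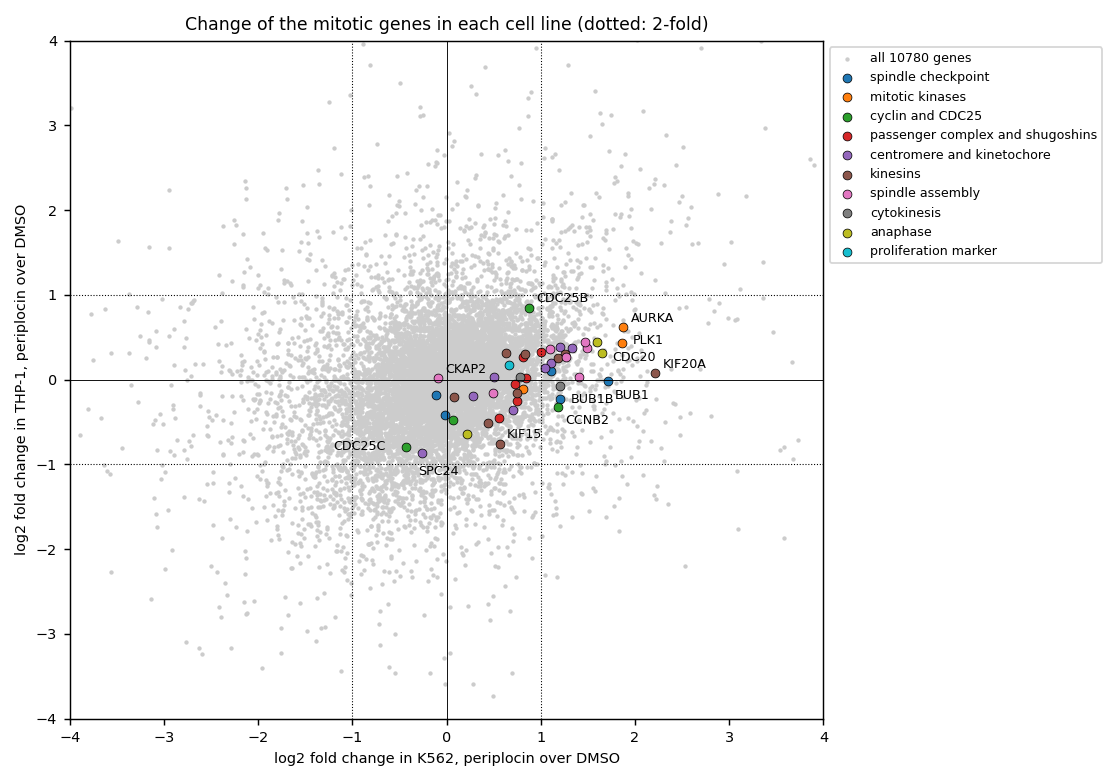
Log2 fold change of Periplocin over DMSO in K562 (x axis) and THP-1 (y axis) for all 10780 genes measured in both lines (grey, of which 50 lie beyond the axes) and the 48 members (coloured by role), with dotted lines at 2-fold. The members spread to the right up to 2.21 and keep between the dotted lines of THP-1, from -0.87 to 0.85.

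Fitting cell line and treatment to all 4 libraries asks what the lines shared, with their disagreement as the only error and 1 residual degree of freedom. In edgeR's quasi-likelihood test, 0 of the 49 members and 0 of 13584 genes passed an adjusted p of 0.05, a background of 0.00%, and the smallest adjusted p of a member was 0.392. At an unadjusted p of 0.05, 9 members were higher and 0 lower, where 5.30% of all genes were higher and 5.76% lower. These were AURKA, CDC25B, PLK1, PTTG1, PRC1, ASPM, NUF2, NDC80 and CDC20. DESeq2 with the same terms called 0 members and 126 of 11740 genes, or 1.07%. The median log2 fold change of the members in this fit was 0.47, with -0.02 over all genes. This value pools the lines, whose medians were 0.84 in K562 and 0.03 in THP-1, and is not a shared increase. CCNB2 had 0.43 in the fit, with 1.18 in K562 and -0.33 in THP-1.

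The DMSO libraries show the levels without Periplocin. They are also the controls of the comparisons above. Between THP-1 DMSO and K562 DMSO the members had a median log2 difference of 0.07, with 0.03 over all genes, and 6 were at least 2-fold higher in THP-1 and 3 at least 2-fold lower, where 22.8% and 21.0% of all genes were. The 6 were UBE2C (5.26, with the limit given above), CDC20 (1.87), ANLN (1.15), KNL1 (1.13), BUB1B (1.07) and NUSAP1 (1.02), given as log2 of THP-1 over K562. At 1.5-fold, 15 were higher and 6 lower, where 31.5% and 30.1% of all genes were. The 3 past 2-fold downward were KIF18A (-1.54), CDC25B (-1.39) and AURKB (-1.21). Levels were also taken per kb of the longest annotated coding transcript, which need not be the transcript expressed, so ranks on this scale are approximate. On it, TPX2 was the highest member in K562 DMSO at 90.1 CPM per kb, followed by KIF2C at 73.3 and CDC20 at 45.4. In THP-1 DMSO CDC20 was highest at 166 CPM per kb, followed by NUSAP1 at 75.1 and TPX2 at 62.8. With Periplocin, CDC20 was the highest per kb in both lines, at 142 CPM per kb in K562 and 206 in THP-1, and in K562 PTTG1 followed at 134 CPM per kb. Without replicates, neighbours in this order cannot be separated beyond counting error.

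Across the 42 members with a RefSeq promoter window, 31 (73.8%) held the CHR letters, where 16.6% of all 27305 windows of the same length did. The windows of BUB3, TTK, AURKA, UBE2C, KNL1, BIRC5 and TPX2 were not used here. A CCAAT box was present in 31 (73.8%) of the members and 35.7% of all windows, and both elements in 25 (59.5%) and 6.58%. At least 2 CCAAT boxes were present in 19 (45.2%) of the members and 11.3% of all windows. The CHR letters clustered near the start. Within 50 bases of it, a distance chosen after the positions were seen, 28 members (66.7%) and 5.05% of all windows held them. Among the 19 members that were at least 2-fold higher in K562 and had a window, 16 (84.2%) held the CHR letters, and among the 23 measured members below 2-fold, 15 (65.2%) did. The median log2 fold change in K562 was 1.05 over the 31 members with CHR letters and 0.73 over the 11 without, and in THP-1 it was 0.04 and -0.05. KIF20A, the member with the largest change, is among the 11 without them, and so are CDC25C and SPC24, the lowest. Only the first window listed for each gene was searched, so promoters at other start sites are not covered. This is a description of 42 genes, with no test.

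**Figure D3:**
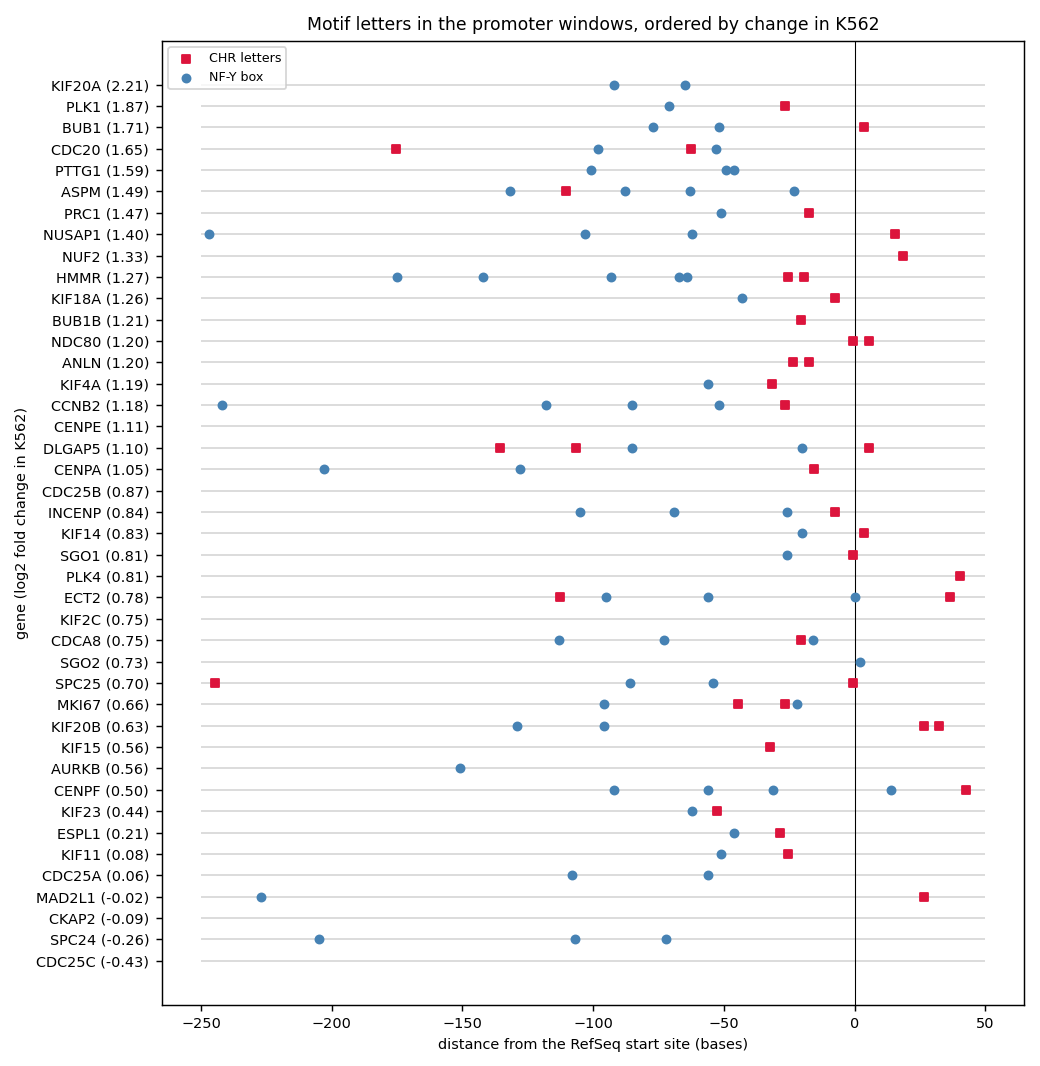
Centre of each run of CHR letters (red squares) and each NF-Y box (blue circles) in the promoter windows of 42 members, by distance in bases from the RefSeq start site (vertical line), ordered by log2 fold change in K562, given beside each name. Squares gather within 50 bases of the start in 28 windows, and circles lie mostly upstream of them.

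Other genes of the cell cycle were described in the same way, from lists written from general knowledge after earlier results of these data were known. Of 63 other mitotic genes, 9 were at least 2-fold higher in K562 and 0 lower, and 0 were higher and 3 lower in THP-1, where 8.85% of all genes were higher and 11.4% lower in K562 and 8.02% and 10.6% in THP-1. Their median log2 change was 0.16 in K562 and -0.25 in THP-1. In K562 they ran from CENPP, a centromere protein (-0.85), to CCNB1, the main mitotic cyclin (1.56, from 83.7 to 247 CPM), and in THP-1 from TRIP13, an ATPase that takes checkpoint complexes apart (-1.72, from 78.1 to 23.8 CPM), to MIS12, a kinetochore protein (0.76). The 49 spindle and checkpoint genes had the higher median of these mitotic lists in both lines. Members and lists were chosen with earlier results known, so this contrast cannot be separated from that choice. The 16 genes of the APC/C, which include its activator FZR1 and its E2 enzyme UBE2S, had medians of 0.14 in K562 and 0.00 in THP-1, with 0 past 2-fold in either direction in either line. They ran from ANAPC16 (-0.99) to ANAPC15 (0.92) in K562 and from ANAPC1 (-0.55) to UBE2S (0.50) in THP-1.

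Genes of DNA replication, which are transcribed at the start of S phase, lay lower than the mitotic genes. Of 42 such genes, 1 was at least 2-fold higher and 3 lower in K562, beside 8.85% and 11.4% of all genes, and the median log2 change was -0.15. In THP-1 0 were higher and 7 lower, beside 8.02% and 10.6% of all genes, the median was -0.69, and 40 of 42 had a negative change. RRM2, a subunit of ribonucleotide reductase, was the lowest in both lines, from 264 to 89.9 CPM in K562 and from 140 to 36.8 CPM in THP-1. POLD1, the catalytic subunit of DNA polymerase delta, was the highest in K562 (1.12) and RFC4, a subunit of the clamp loader, the highest in THP-1 (0.07). Cohesin and condensin genes, 18 in number, had medians of 0.22 in K562 and -0.08 in THP-1, with 1 past 2-fold in K562, NCAPH (1.07), a condensin subunit. The lowest there was PDS5A (-0.49), and in THP-1 this list ran from NCAPD2 (-0.54) to NIPBL (0.66).

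Genes for proteins that act on mitotic promoters changed little as a list of 19, with medians of -0.01 in K562 and -0.11 in THP-1. FOXM1, which drives late cell cycle genes, was at 95.7 and 116 CPM in K562 and at 95.4 and 88.2 CPM in THP-1. MYBL2, which joins MuvB in S phase, was the lowest in THP-1, from 235 to 147 CPM (-0.67), and E2F4, a repressor in the DREAM complex, was the highest in K562 (0.99). CDKN1A, which encodes the CDK inhibitor p21, went opposite ways. It went from 48.3 to 22.2 CPM in K562 (log2 fold change -1.12, interval -1.30 to -0.95), the lowest of the list, and from 25.3 to 136 CPM in THP-1 (2.43, interval 2.29 to 2.57), the highest. It was the only gene of this list past 2-fold in either line.

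**Figure D4:**
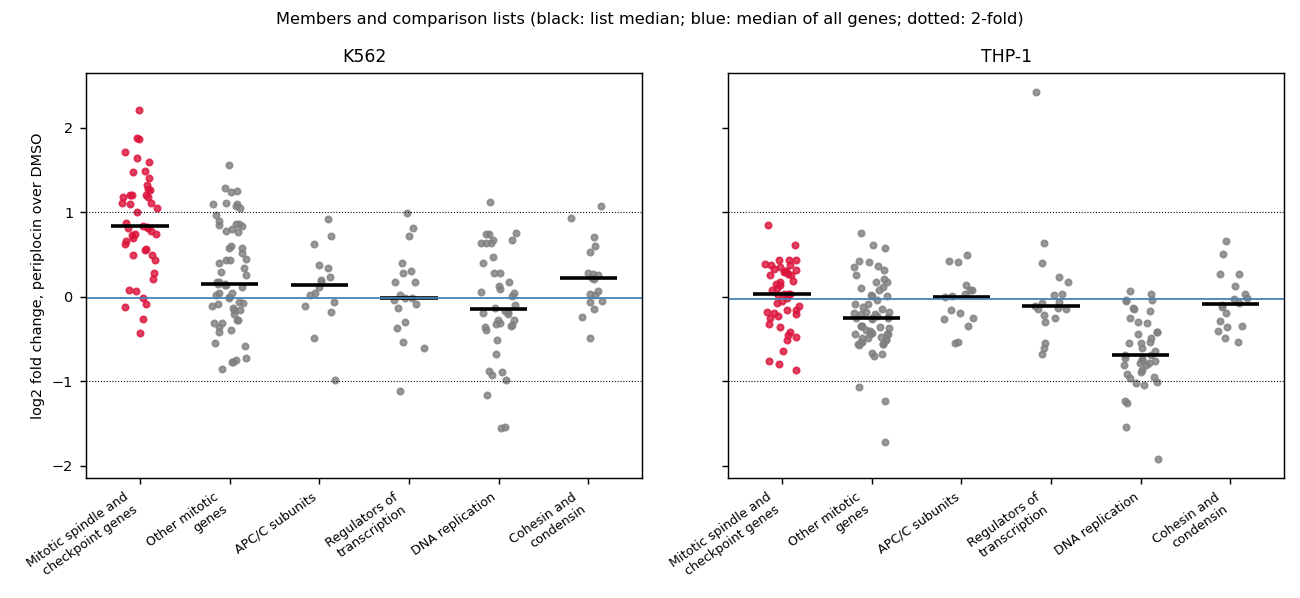
Log2 fold change of Periplocin over DMSO for each measured gene of the 49 members (red) and of 5 other cell cycle lists (grey), in K562 and THP-1, with the list median in black, the median of all genes in blue and dotted lines at 2-fold. The members sit highest in K562, with a median of 0.84, and the DNA replication genes lowest in THP-1, with a median of -0.69.

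Some members share sequence with other genes, which limits how well their counts can be assigned. By GENCODE release 29, 18 members share exon bases with another gene, 5 of them over more than 10% of their exon bases: NUSAP1 (62.2%), PRC1 (57.6%), SGO1 (17.7%), PLK1 (11.6%) and BUB1B (10.2%). The partner of NUSAP1, AC087721.2, had 0, 18, 0 and 4 counts in the 4 libraries. The close copies KIF4B of KIF4A and PTTG2 of PTTG1 had at most 3 and 4 counts. Whether the counting used the strand of the reads is not given in the sources used here.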

How the data were processed

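Poly-A RNA of K562 and THP-1 cells was sequenced in 4 libraries, 1 per condition. As sequencer, the labels give an Illumina instrument and the methods the T7 platform. The submitters' processing notes name HISAT2, StringTie 1.3.1 and the build hg38, without their role or order. The authors deposited a table of expected counts, which are estimated per gene and library, need not be whole and are neither normalized nor pooled. Of its 20348 genes, 20310 have a symbol. Total counts, which set the precision, were between 16381172 and 20622719 per library.

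Expected counts were rounded to integers and scaled by TMM over all 4 libraries (edgeR 4.0.16, R 4.3.3). Log2 fold changes used a prior count of 0.5 and carry 95% exact Clopper-Pearson counting intervals. A gene was measured where its mean level in the pair of libraries reached 1 CPM, and 2-fold was the threshold, with no test within a line. A fit of cell line and treatment to all libraries, by the quasi-likelihood test of edgeR, took the 13584 genes that reached 10 counts in 2 libraries or more. Its p-values were Benjamini-Hochberg adjusted, with a threshold of 0.05, and the common biological coefficient of variation was 0.317. An alternative fit used DESeq2 1.42.0. Other alternatives changed scaling, filter, prior count or fold threshold, or subtracted from each gene the median of its bin, out of 10 bins of GC content and 5 of length. Procedures were first tested on simulated data. For the intervals these held counting error only, and for the fit the changes were the same in both lines. The simulated data do not show how the fit behaves where the lines differ, or at smaller changes and the variation of these libraries. Lists, motifs and figures were made in Python 3.11.15 (pandas 2.3.3, numpy 2.4.6, matplotlib 3.10.9). Transcript lengths, GC content and exon overlaps came from GENCODE release 29 on GRCh38, where 20118 genes were found by identifier, and promoter windows from RefSeq on GRCh38.p14.

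The members and lists were chosen with earlier results of these data known. Members are named by role, with values in every library for those past 2-fold in a line, the highest and lowest of each role in each line and those opposite in sign beyond counting error. From each comparison list the highest and lowest gene in each line are named. FOXM1 and the markers named with values are not covered by this rule and were picked once their values were known.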

Additional observations from a re-analysis of the deposited data

Results flagged for a closer look

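BUB1B, CCNB2 and ANLN were at least 2-fold higher with Periplocin in K562 and lower in THP-1, with counting intervals on opposite sides of 0. The THP-1 interval of ANLN included 0 with TMM over the pair of libraries and with DESeq2 size factors (-0.11 to 0.03). The K562 log2 fold change minus that of THP-1 was 1.44 for BUB1B, 1.51 for CCNB2 and 1.28 for ANLN. With 1 library per condition, these differences were not tested.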

How the results depend on the processing

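The higher level of the members in K562 and their flat level in THP-1 kept their direction under every scaling, filter and prior count tried, with medians of the log2 fold change between 0.83 and 0.85 in K562 and between 0.03 and 0.07 in THP-1, and 21 to 22 members at least 2-fold higher in K562. At 1.5-fold, 34 members were higher in K562, 2 were higher and 4 lower in THP-1, and 15 were higher and 6 lower in THP-1 DMSO than in K562 DMSO. BIRC5 went to 1.00 with DESeq2 size factors and CENPE to 0.94 after subtraction of GC and length bins, just below 2-fold. Between the DMSO libraries, total counts moved the median of the members from 0.07 to -0.05 and that of all genes to -0.09, and the members at least 2-fold apart numbered 4 to 6 higher and 3 to 4 lower over all settings at 2-fold. BUB1B (0.95) and NUSAP1 (0.90) dropped below 2-fold and KIF14 (-1.08) passed it with total counts, and with GC and length bins KNL1 was at 0.92 and KIF14 at -1.17. In the fit over 4 libraries, the number of genes past an adjusted p of 0.05 was 126 with DESeq2, 1 with total counts and 2 with no filter, beside 0 in edgeR as reported, and the cause was not tested. Members at an unadjusted p of 0.05 numbered 9 to 11. No paired analysis was possible because each condition has 1 library and the labels give no replicate numbers, other than the fit over 4 libraries, which sets each Periplocin library beside the DMSO library of its line. For the same reason no library could be left out within a line. Of the 13 members above 0 in K562 and below 0 in THP-1 beyond counting error, 9 to 13 remained over the scalings, the prior count and the GC and length bins. KIF11 joined them with total counts and CENPF with GC and length bins. UBE2C had 11 and 12 counts in K562, and the cause was not tested.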
